A study of Mus musculus with 11 samples.

Results

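Both hippocampi of mice in which a photothrombosis (PT) had been made in the left parietal lobe and which had been given the anti-seizure drug levetiracetam (LEV) were profiled 1 month after PT by cap analysis of gene expression (CAGE). The pair consists of the infarcted-side library and the non-infarcted-side library of that condition, chosen by their labels, and makes up 2 of the 11 libraries of the series. The mice were C57BL/6N males. PT was made by giving rose bengal at 35 mg/kg intraperitoneally and shining LED light (565 nm, 200 mW) on a circle 3.5 mm wide for 30 min, and mice drank LEV freely at 5 mg/mL. The other libraries came from naive mice without PT or LEV, and from both sides at 7 d after PT, 7 d after PT with LEV, 1 month after PT without LEV, and 2 months after PT with LEV withdrawn, for 2 weeks by the label but 1 week by the series text.

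Each group was 1 library, so no difference between the sides has a replicate check. Whether the 2 sides share animals, how many animals were pooled in a library, and which of the study's age ranges (8 to 10 or 65 to 85 weeks) it represents cannot be read from the labels. The series text places the 2 weeks of LEV after the first month, and the interval between dosing and dissection of this pair was not given in the sources used here.

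PT closes small vessels of the cortex by light-driven clotting. Whether light reached the hippocampus beneath the lesion was not tested. Levetiracetam binds SV2A, a glycoprotein of synaptic vesicles. The hippocampus lies against the lateral ventricle, whose choroid plexus secretes cerebrospinal fluid and makes transthyretin (Ttr) at very high levels, so a dissected hippocampus can carry more or less of that tissue. CAGE captures the capped 5′ ends of RNA and so counts transcription starts.

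The infarcted-side library held 15889269 reads and the non-infarcted-side library 22377376, within a series range of 13382623 to 22377376. Of these reads, 95.4% and 96.0% lay in the listed genes. Values are CPM, reads scaled to the library total, differences are log2(CPM + 1) on the infarcted minus the non-infarcted side, and a gene was counted as past the fold when that difference reached 0.5 in size. The fold is a size, not a test, and differences of low genes are understated on this scale. In whole tissue, fewer cells of a type and less RNA per cell cannot be told apart. Hippocampal identity was present on both sides. Prox1, the transcription factor of dentate granule cells, was at 50.4 and 46.1 CPM (here and below, the infarcted side is given before the non-infarcted side), and the CA1 marker Fibcd1 was at 60.9 and 68.6 CPM.

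The libraries stood apart in choroid plexus. Ttr was at 1709 CPM on the infarcted side and 80.7 CPM on the non-infarcted side, against 4027 CPM in naive hippocampus, a log2 difference of 4.39. The 41 choroid plexus genes in the table summed to 2482 and 455 CPM on the 2 sides and to 5135 CPM in naive, so the infarcted side held less than naive as well. Of the 35 measured choroid plexus genes, 34 were above 0, 31 were past the fold, and the median difference was 1.46. Coagulation factor V (F5) was at 18.9 and 1.47 CPM, the folate receptor Folr1 at 9.13 and 0.938 CPM, the secreted peptide precursor Ecrg4 at 48.7 and 8.31 CPM, and the lysophosphatidic acid-producing enzyme Enpp2 at 187 and 66.4 CPM. Rdh5, a retinol dehydrogenase on the same list, was level at 128 and 126 CPM. The pair taken 1 month after PT without LEV was uneven the other way, with a summed 433 CPM on its infarcted side and 2048 CPM on its non-infarcted side and a median of -1.14.

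That mirror image was used to set genes apart. The 35 choroid plexus genes were removed, and with them 294 genes that were lower by at least 0.5 on the infarcted side at 1 month without LEV, a pair that shares no library with the one described. Those 294 included genes of other sources, such as the haemoglobin gene Hbb-bs and the CA1 gene Spink8, and their median here was 0.15, with 62 past the fold higher and 5 lower. Just inside the threshold lay Dab2 (-0.52 without LEV and 0.61 here) and Bmp6 (-0.50 and 1.28), and just outside it Cgnl1 (-0.47 and 0.60). Before the step, 324 of 15821 genes, all with a mean of 1 CPM or more, were past the fold higher on the infarcted side (2.05%) and 119 lower (0.752%). After it, 231 of 15492 were higher (1.49%) and 114 lower (0.736%). Differences of at least 1 went from 52 genes higher (0.329%) to 7 (0.0452%), and no gene was lower by that size in either count (0%). Of the 231 higher genes 130 were below 0 at 1 month without LEV, 50 of them between -0.5 and -0.3. Of the 114 lower genes 62 were below 0 there, while 9009 of all 15492 genes left were above 0 there. The share below 0 was thus larger in both directions than over all genes left. The part of choroid plexus tissue in the genes left was not tested.

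**Figure D1:**
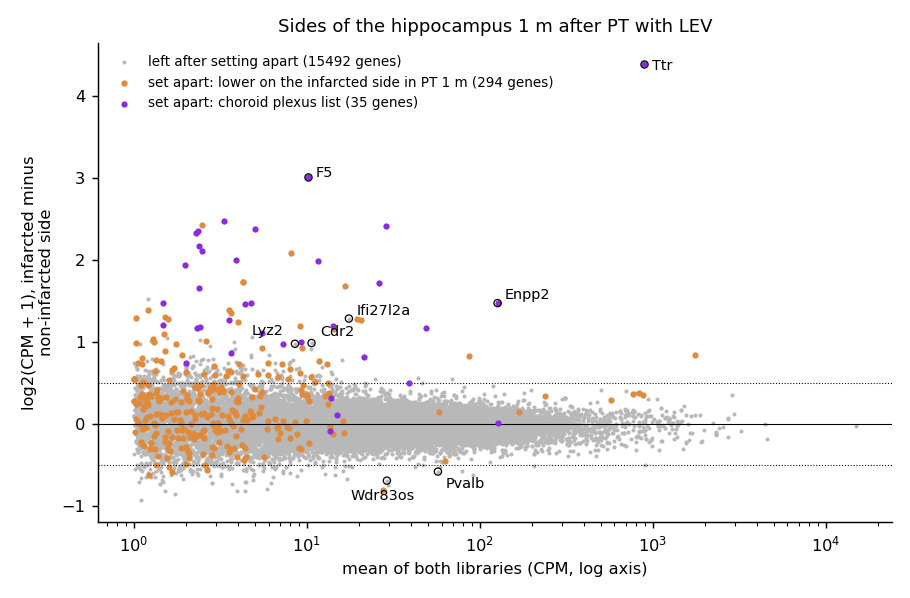
Each point is 1 gene, with the mean of both libraries (CPM, log axis) against the log2(CPM + 1) difference, infarcted minus non-infarcted side; dotted lines mark the fold of 0.5. The choroid plexus genes reach up to Ttr at 4.39, while the 15492 genes left (grey) scatter around 0 and narrow as the level goes up.

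What remained was small and lay mostly in low genes. Between 1 and 5 CPM, 181 of 3228 genes were higher and 78 lower, together 8.02%. Between 5 and 20 CPM, 45 and 27 of 4096 genes were past the fold (1.76%), and between 20 and 100 CPM 5 and 8 of 6120 (0.212%). At 100 CPM and more, 1 of 2048 genes was past it (0.0488%). The SD of the differences narrowed over the same ranges from 0.28 to 0.21, 0.14 and 0.13. Of the 231 higher genes 175 were protein coding, and of the 114 lower genes 70.

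Of the 7 genes left with a difference of at least 1, only the interferon-induced gene Ifi27l2a had a mean above 5 CPM. Genes named from here on with a mean under 5 CPM fall outside the naming rule and were chosen after their values were seen. The invariant chain gene Cd74 was at 5.41 and 2.19 CPM, the matrix glycoprotein gene Emilin1 at 3.59 and 1.25 CPM, and the tetranectin gene Clec3b at 6.86 and 2.77 CPM. Wfikkn2, a secreted protease-inhibitor-domain protein, was at 2.01 and 0.492 CPM, and the neuropeptide precursor Trh at 2.45 and 0.670 CPM. The sulfotransferase gene Sult1c2 was at 2.27 CPM against 0.134 CPM, which is 3 reads, a ratio of 16.9 with a 95% counting interval from 5.34 to 85.8.

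The 12 genes with the largest higher values at a mean of 5 CPM or more ran from 0.69 to 1.29. Ifi27l2a was at 25.2 CPM (95% counting interval 22.8 to 27.8) on the infarcted side and 9.74 CPM (8.49 to 11.1) on the other, and naive hippocampus was at 8.93 CPM. The infarcted side was thus the one away from naive. The same gene was also higher on the infarcted side at 7 d (49.1 and 11.7 CPM) and at 7 d with LEV (49.1 and 13.4 CPM), but not at 1 month without LEV (16.2 and 20.9 CPM). Lyz2, the lysozyme of macrophages and microglia, was at 11.6 and 5.41 CPM with naive at 7.21 CPM, a difference of 0.98. Apoc1, an apolipoprotein of phagocytes and astrocytes, was at 15.3 and 9.07 CPM with naive at 9.71 CPM.

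In other leading genes naive lay elsewhere. Cdr2, which encodes an antigen of paraneoplastic cerebellar degeneration, was at 14.5 and 6.79 CPM with naive at 17.1 CPM, a difference of 0.99. The anion exchanger Slc4a2 was at 20.5 and 11.5 CPM with naive at 30.3 CPM, and Foxj1, the master regulator of motile cilia, at 10.1 and 5.72 CPM with naive at 9.85 CPM. In these 3 genes naive was nearer the infarcted side. At 1 month without LEV, however, Cdr2 was at 5.90 and 6.31 CPM and Foxj1 at 5.90 and 5.45 CPM, near the non-infarcted side here. Slc4a2 was at 14.6 and 19.2 CPM there, between the 2 sides of this pair. Which library stood apart thus depended on the library it was set against. The type I collagen gene Col1a1 was at 14.2 and 7.02 CPM with naive at 11.8 CPM, while the guidance cue Ntn1, at 7.99 and 4.02 CPM, and the basement membrane protein Nid2, at 8.43 and 4.6 CPM (0.75), had naive at 5.71 and 5.00 CPM, nearer the non-infarcted side. The Wnt receptor Fzd2 (0.78), the carbonic anhydrase Car14 (0.76) and the RNA-binding protein Bicc1 (0.69) completed the 12. Of the 12, 3 were above 0 in all 4 other pairs, as were 9.68% of all genes left. At 1 month without LEV 8 of the 12 were below 0, where 9009 of the 15492 genes left were above 0. Lowest there were Slc4a2 (-0.37), Ifi27l2a (-0.35), Car14 (-0.33) and Nid2 (-0.32). The choroid plexus part of the values of these genes was not tested.

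The 12 genes with the largest lower values ran from -0.80 to -0.57. Pvalb, the calcium buffer of fast-spiking interneurons, was at 45.7 CPM (42.4 to 49.1) on the infarcted side and 68.7 CPM (65.3 to 72.3) on the other, between which naive lay at 54.0 CPM. Wdr83os, a small protein of the endoplasmic reticulum, was at 22.0 and 36.0 CPM with naive at 40.3 CPM, and Armcx2, an armadillo-repeat gene of the X chromosome, at 13 and 21.2 CPM with naive at 18.4 CPM. For Wdr83os and Armcx2 the infarcted side was the one further from naive, while for Pvalb naive was nearer the infarcted side. Dhrs4, a short-chain dehydrogenase, was at 9.88 and 15.6 CPM with naive at 12.6 CPM. Glp1r, the receptor for glucagon-like peptide, was at 4.72 and 7.95 CPM with naive at 3.36 CPM, and differed by 1.01 the other way at 1 month without LEV. The keratin Krt1 (-0.60), Rpp25l (-0.57), the zinc-finger gene Zfp275 (-0.57) and the clustered protocadherins Pcdhb2 (-0.59) and Pcdhb14 (-0.57) followed. Rpl9-ps7 (-0.80) and Rpl17-ps10 (-0.63) are processed copies of ribosomal protein genes, and how reads were divided between copy and parent is not given, so their values are uncertain. The alpha and beta protocadherin clusters were not among the 40 lists. They were chosen after their values were seen and include Pcdhb2 and Pcdhb14, so their counts are no separate support. Of their 32 measured genes 23 were below 0, with a median of -0.12, and 5 were past the fold lower. Over all 15821 genes 51.2% were below 0 and 0.752% past the fold lower. Of the 12 largest lower genes, 0 were below 0 in all 4 other pairs. Over all genes left the share was 4.01%, so a count of 0 among 12 says little.

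**Figure D2:**
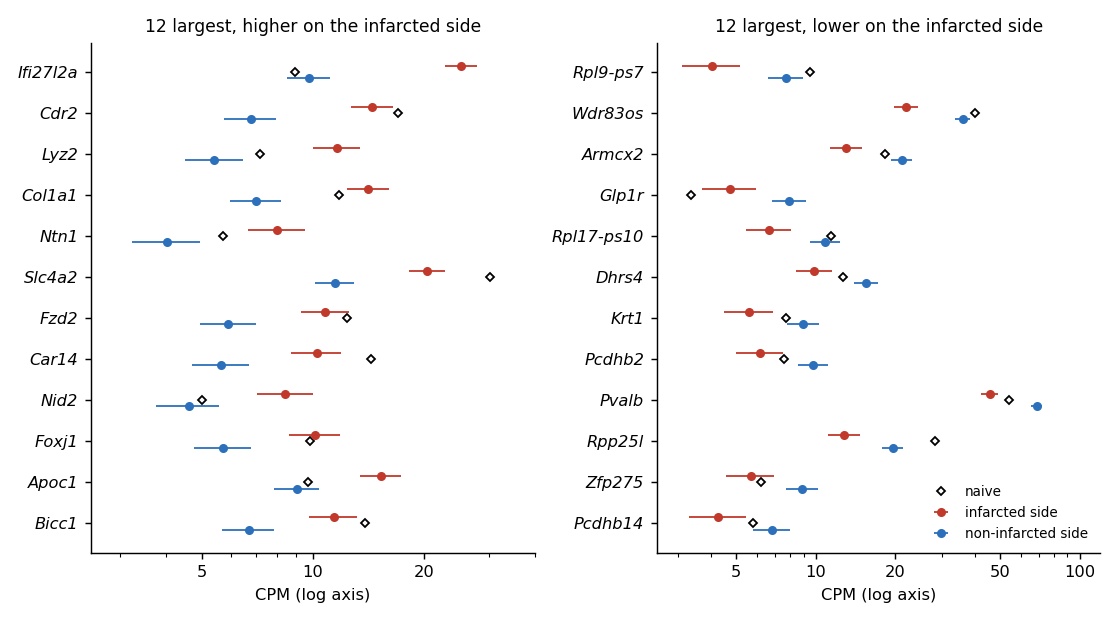
CPM (log axis) of the 12 genes per direction with the largest differences, for the infarcted side (red) and the non-infarcted side (blue) with 95% exact Poisson intervals that cover counting error only, and for naive (open diamonds). The intervals of Ifi27l2a (22.8 to 27.8 against 8.49 to 11.1 CPM) do not overlap, and naive lies by one side in some genes and by the other in the rest.

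The design allowed 1 test of this pair, which asked whether its side difference departed from those of the other 4 pairs. With limma and Benjamini-Hochberg adjustment, 0 of 16055 genes were called (0%), and the lowest adjusted p was 0.999. At an unadjusted p under 0.05 there were 659 genes by limma, 399 by edgeR and 83 by DESeq2. Each count was a smaller share of the 16055 genes than the 0.05 that no difference at all would give. Neither edgeR nor DESeq2 called a gene after adjustment. The 4 other pairs differ among themselves in time and drug, which widens the spread the test works with, and with 3 residual degrees of freedom a miss does not show that the pairs were alike. Dhrs4 departed from the mean of the other pairs by -0.74 ± 0.12 (SE; limma, unadjusted p = 0.00029, adjusted p = 0.999), and Cdr2 by 1.02 ± 0.23 (limma, unadjusted p = 0.0020, adjusted p = 0.999). So no gene below is called different from the other pairs, and the values are a description of these libraries.

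Some of the genes left were past the fold in other pairs too. Of the 231 higher genes, 82 were also past the fold higher at 7 d with LEV (35.5% of these and 14.3% of the genes past it there), where 3.69% of all genes were. At 2 months after withdrawal 64 were (27.7% and 15.2%, against 2.72% of all genes), and at 7 d without LEV 50 (21.6% and 8.43%, against 3.83%). At 1 month without LEV 16 were (6.93% and 6.45%, against 1.60%). The set-apart rule used that pair, so its counts do not compare directly with the others. In all, 48 of the 231 (20.8%) were above 0 in every other pair, against 9.68% of all genes. Past the fold lower at 7 d, 7 d with LEV and 2 months were 0, 1 (0.877%) and 3 (2.63%) of the 114 lower genes. Over all genes the shares there were 0.794%, 0.465% and 0.781%, so counts this small say little about recurrence. At 1 month without LEV the set-apart rule left no gene past the fold lower. Of the 114, 6 (5.26%) were below 0 in every other pair, against 4.01% of all genes. All these shares of all genes are over the 15492 genes left, at every level. Of the 231 higher genes, 181 had a mean between 1 and 5 CPM, where differences spread most. The shares are thus not matched for level, and recurrence between pairs had no test of its own.

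Genes were then read by role, in 40 lists, against a background in which 48.8% of the 15821 genes were above 0, 51.2% were below 0 and the median was -0.00. The lists hold 959 entries for 911 genes, so some genes count in more than 1 list. Psmb8, for example, is on both the interferon-response and the antigen-presentation list. Lists that lean the same way are thus not fully separate. Microglia, the resident phagocytes of the brain, came out modestly higher on the infarcted side. Of 20 homeostatic microglial genes 16 were above 0, with a median of 0.18 and none past the fold. The lipid-sensing receptor Trem2 was at 14.4 and 10.1 CPM (0.48), its adaptor Tyrobp at 68.7 and 52.7 CPM (0.38), and the complement chains C1qb at 90.2 and 67.7 CPM (0.41) and C1qc at 118 and 91.9 CPM (0.36). The defining marker P2ry12 stood at 19.1 and 21.7 CPM and Tmem119 at 17.6 and 14.3 CPM, so the members did not all lean one way. For C1qc the naive level was 81.3 CPM, nearer the non-infarcted side.

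Of 17 activated-microglia and phagocyte genes 13 were above 0 with a median of 0.28, and 5 were past the fold. These were Cd74 (1.01), Lyz2 (0.98), the matricellular protein Spp1 (6.36 and 3.17 CPM, 0.82), the galectin-binding protein Lgals3bp (8.24 and 4.87 CPM, 0.66) and the galectin Lgals3 (3.90 and 2.37 CPM, 0.54). The lysosomal marker Cd68 was level at 10.3 and 10.1 CPM. Complement genes, which share C1qb and C1qc with the homeostatic microglial list, were above 0 in 12 of 14 cases with a median of 0.28. The median of activated-microglia genes was 0.69 at 7 d, 0.52 at 7 d with LEV, 0.45 at 2 months and 0.03 at 1 month without LEV.

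Interferon-response and antigen-presentation genes leaned the same way. Of 23 interferon-response genes 18 were above 0 with a median of 0.25. The 5 past the fold were Ifi27l2a, the ubiquitin-like Isg15 (4.41 and 2.59 CPM), the guanylate-binding protein Gbp2 (1.64 and 0.804 CPM), Oasl2 (2.39 and 1.39 CPM) and Ifit3 (2.64 and 1.56 CPM). The antiviral membrane proteins Ifitm3 (38.7 and 29.9 CPM, 0.36) and Bst2 (7.11 and 5.41 CPM, 0.34) and the immunoproteasome subunit Psmb8 (17.4 and 12.6 CPM, 0.43) stood higher by less than the fold, while Stat2 was level at 14 and 13.9 CPM.

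Of 15 antigen-presentation genes 12 were above 0 with a median of 0.37, which was 0.18 (9 of 12) once the 3 class II genes set apart were left out. The class I heavy chains H2-D1 (81.9 and 55.7 CPM, 0.55) and H2-K1 (59.1 and 45.4 CPM, 0.37) had naive levels of 55.3 and 46.8 CPM, close to the non-infarcted side. B2m, the light chain they share, was at 82.7 and 69.0 CPM, but its naive level was 41.2 CPM, below both. H2-T23 was at 7.62 and 9.43 CPM, lower on the infarcted side. Class I genes are near-identical in parts, so reads of H2-D1 and H2-K1 may be divided between them by the counting. The class II genes set apart were H2-Ab1 (6.04 and 1.97 CPM), H2-Aa (1.38 and 0.626 CPM) and H2-Eb1 (1.70 and 1.03 CPM).

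Because CAGE counts starts, the promoters of some of these members are shown with the letters known from their families. They come from RefSeq (GRCm38.p6) and run from 250 bases before to 50 after the start. Capitals mark the interferon-stimulated response element, searched on both strands as GAAA, any 2 bases and GAAA, in Ifitm3 (chr7:141010695-141010994, minus strand) and Bst2 (chr8:71537423-71537722, minus strand), where the copies of Bst2 overlap. In H2-D1 (chr17:35262844-35263143, plus strand) and H2-K1 (chr17:34000298-34000597, minus strand) they mark the class I enhancer A, a palindrome searched as the arm GGGGA, a central T and the arm TCCCC, and the CCAAT box, read as CCAAT or ATTGG. These 4 are examples that hold the letters. Other named members of the groups just described, such as Psmb8 and H2-T23, are not shown.
Ifitm3: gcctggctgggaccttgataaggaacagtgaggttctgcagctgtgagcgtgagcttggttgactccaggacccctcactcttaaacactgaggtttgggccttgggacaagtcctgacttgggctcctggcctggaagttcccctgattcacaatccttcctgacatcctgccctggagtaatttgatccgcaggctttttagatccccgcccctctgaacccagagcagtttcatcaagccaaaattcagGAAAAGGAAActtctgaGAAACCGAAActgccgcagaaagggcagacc
Bst2: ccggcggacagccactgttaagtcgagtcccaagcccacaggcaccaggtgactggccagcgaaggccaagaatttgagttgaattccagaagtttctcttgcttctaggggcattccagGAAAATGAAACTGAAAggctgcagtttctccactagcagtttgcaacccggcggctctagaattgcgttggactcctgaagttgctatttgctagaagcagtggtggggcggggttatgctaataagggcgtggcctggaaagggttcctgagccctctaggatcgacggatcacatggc
H2-D1: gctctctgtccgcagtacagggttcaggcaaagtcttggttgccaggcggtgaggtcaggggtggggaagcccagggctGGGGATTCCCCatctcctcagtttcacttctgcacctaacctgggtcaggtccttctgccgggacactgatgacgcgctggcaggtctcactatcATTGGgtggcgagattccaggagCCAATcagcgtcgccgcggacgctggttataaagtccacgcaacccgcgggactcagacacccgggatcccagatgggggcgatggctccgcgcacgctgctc
H2-K1: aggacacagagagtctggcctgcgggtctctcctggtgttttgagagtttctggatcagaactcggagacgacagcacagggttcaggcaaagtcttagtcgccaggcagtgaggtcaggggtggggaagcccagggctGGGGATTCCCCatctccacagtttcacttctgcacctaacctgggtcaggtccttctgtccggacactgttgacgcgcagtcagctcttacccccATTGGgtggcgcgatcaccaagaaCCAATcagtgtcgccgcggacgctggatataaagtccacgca

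The response element was in 15 of 22 interferon-response promoters (68.2%) and in 3.49% of all 27025 promoters, 1 per symbol. Enhancer A was in 2 of 12 antigen-presentation promoters, those printed, and in 6 of all (0.0222%). The CCAAT box was in 11 of those 12 (91.7%) and in 37.9% of all. A match describes the letters and is not a measured site.

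Reactive astrocyte genes did not lean as a group. Gfap, the intermediate filament of astrocytes, was at 309.8 and 272 CPM with naive at 277 CPM, a difference of 0.19 that compared with 0.94 at 7 d, 0.66 at 7 d with LEV, 0.52 at 1 month without LEV and 0.23 at 2 months. Vim was at 34.9 and 25.9 CPM (0.42), and Serpina3n was level at 24.1 and 24.4 CPM. Of 14 measured members 9 were above 0 with a median of 0.01, and 1, Lcn2 (1.64 and 0.760 CPM), was past the fold. Of 15 astrocyte identity genes 11 were below 0 (median -0.07), among them the aldolase Aldoc (428 and 532 CPM), the gap-junction protein Gja1 (87.7 and 104 CPM) and the glutamine synthetase Glul (109 and 128 CPM).

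Meningeal and matrix genes were higher, and many of them were set apart. Of 22 meningeal fibroblast genes 20 were above 0, 12 were past the fold and the median was 0.51, with 14 members among those set apart. The list summed to 2524 and 1439.9 CPM on the 2 sides, of which the prostaglandin synthase Ptgds alone made 2261 and 1262 CPM. The growth factors Bmp6 (27.9 and 10.9 CPM) and Igf2 (29.3 and 11.6 CPM) and the collagen-processing protein Pcolce (13 and 5.14 CPM) led it, while the proteoglycan Dcn was level at 67.7 and 69.0 CPM. The 8 members left had a median of 0.34, with 6 above 0. The list median was 1.53 at 7 d with LEV, 0.62 at 2 months, -0.16 at 7 d and -0.78 at 1 month without LEV. It was thus above 0 in the 3 pairs given LEV and below 0 in the 2 without, a split by drug that was not tested. How much of the matrix signal came from attached membranes was not tested.

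Of 29 collagen and laminin genes 21 were above 0 (median 0.18). TGF-beta signalling genes were above 0 in 21 of 25 cases with a median of 0.27, and in 17 of 21, with the same median, after the step. The ligand Tgfb1 was at 12.9 and 8.85 CPM (0.50), its receptor Tgfbr2 at 22.0 and 15.4 CPM (0.49), the target Id3 at 79.2 and 61.8 CPM (0.35) and the inhibitory Smad6 at 10.8 and 7.15 CPM (0.53). The signal carriers Smad2 (32.1 and 34.2 CPM) and Smad3 (43.1 and 46.4 CPM) were not higher. For Tgfb1 naive was at 13.2 CPM and for Tgfbr2 at 20.5 CPM, next to the infarcted side.

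Vessel and blood lists had medians slightly below 0, with members on both sides. Endothelial genes were above 0 in 8 of 19 cases (median -0.06), with Cdh5 past the fold higher (5.29 and 2.99 CPM) and Ly6c1 (13.5 and 19.6 CPM) and Tek (2.71 and 4.33 CPM) past it lower. Cldn5, the tight-junction protein of the blood-brain barrier, was at 38.5 and 48.0 CPM. Pericyte and smooth muscle genes were above 0 in 4 of 11 cases (median -0.07). Of 4 measured blood cell genes 3 were below 0 (median -0.20). The haemoglobin gene Hbb-bs, the 1 past the fold, was at 19.95 and 35.4 CPM against 91.0 CPM in naive, so both sides lay below naive. Of 19 ependymal and ciliary genes 12 were above 0 (median 0.11), and Foxj1 alone was past the fold.

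**Figure D3:**
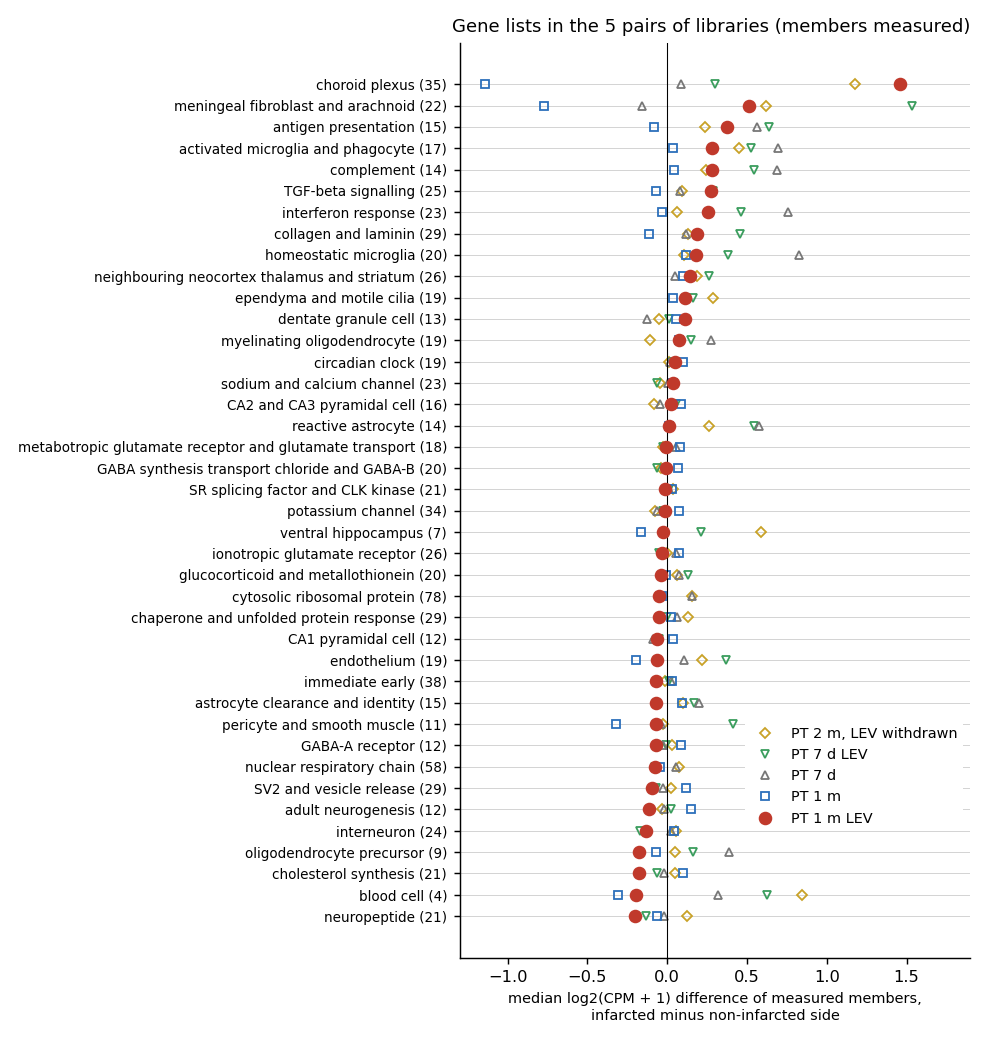
Median log2(CPM + 1) difference, infarcted minus non-infarcted side, of the measured members of 40 gene lists (number of members in brackets) in each of the 5 pairs; filled red circles are the pair at 1 month with LEV. Choroid plexus stands at 1.46 and -1.14 at 1 month with and without LEV, while the hippocampal neuron, neuropeptide and synapse lists of this pair lie between -0.20 and 0.11.

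Neurons of the hippocampal fields were near level. Of 13 dentate granule cell genes 11 were above 0 (median 0.11), led by the kinase Plk5 (17.1 and 13.1 CPM, 0.36). The dentate calcium buffer Calb1 was level at 212 and 210.1 CPM. Of 12 CA1 genes 11 were below 0 (median -0.06), with the transcription factor Neurod6 at 133 and 171 CPM (-0.37), which was also below 0 in all 4 other pairs. CA2 and CA3 genes were above 0 in 10 of 16 cases (median 0.03). Genes of neighbouring neocortex, thalamus and striatum were above 0 in 16 of 26 (median 0.14), among them Zic1 (14 and 9.38 CPM), Ccn2 (16.6 and 11.5 CPM) and Tcf7l2 (31.1 and 22.6 CPM). That list summed to 610 and 561 CPM, and the part of neighbouring tissue in the field markers was not tested.

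Inhibitory neuron and neuropeptide genes stood lower on the infarcted side. Of 24 interneuron genes 22 were below 0 with a median of -0.13, and Pvalb was the 1 past the fold. Somatostatin (Sst) was at 538 and 655 CPM (-0.28) with naive at 585 CPM, and Vip at 15.2 and 18.2 CPM (-0.25). The GABA-synthesising enzymes Gad1 (262 and 274 CPM) and Gad2 (94.2 and 99 CPM) differed little. The list median was -0.17 at 7 d with LEV and 0.02, 0.04 and 0.05 in the 3 other pairs. Pvalb itself was at -0.45 at 1 month without LEV, -0.26 at 7 d with LEV, -0.09 at 2 months and 0.06 at 7 d. Its lower value was thus not particular to this pair. Of 21 neuropeptide genes 17 were below 0 (median -0.20). Adcyap1, which encodes the peptide PACAP, was at 3.08 and 5.68 CPM (-0.71), and the nociceptin precursor Pnoc at 5.60 and 7.73 CPM (-0.40), whereas the precursors Cartpt (12.1 and 10.2 CPM) and Nmb (4.41 and 3.40 CPM) stood higher. Activity-dependent Bdnf was at 35.9 and 41.6 CPM (-0.21).

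The synaptic drug target leaned lower. Sv2a was at 121 CPM (115 to 126) on the infarcted side and 149.7 CPM (145 to 155) on the other, with naive at 134 CPM between them. The difference of -0.31 compared with -0.03 at 7 d, 0.03 at 7 d with LEV, 0.16 at 1 month without LEV and 0.02 at 2 months. Against those 4 pairs it departed by -0.35 ± 0.13 (SE; limma, unadjusted p = 0.025, adjusted p = 0.999), which did not pass. Its relatives Sv2b (336 and 348 CPM) and Sv2c (9.19 and 10.3 CPM) differed less. Of 29 vesicle-release genes 21 were below 0 (median -0.09), including the fusion ATPase Nsf (326 and 387 CPM) and the priming factor Unc13a (74.5 and 88.9 CPM), while the active-zone scaffolds Bsn (259 and 234 CPM) and Pclo (219 and 206 CPM) were above 0.

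GABA-A receptor subunits, which form the main inhibitory chloride channel, were below 0 in 9 of 12 cases with a median of -0.07. Gabrb1 was furthest, at 53.6 and 66.6 CPM (-0.31), followed by Gabra2 at 83.0 and 94.2 CPM (-0.18). The subunits Gabra5 (244 and 252 CPM) and the extrasynaptic Gabrd (25.9 and 24.3 CPM) were within 0.09 of level. Slc12a2, the chloride importer NKCC1, was at 52.9 and 35.3 CPM (0.57) with naive at 54.4 CPM. Because choroid plexus also makes this transporter, and its difference was 0.52 at 2 months but 0.05 at 1 month without LEV, neuronal and epithelial RNA cannot be told apart for it. Ionotropic glutamate receptor genes were below 0 in 19 of 26 cases (median -0.03), with the kainate subunit Grik1 at 8.69 and 12.2 CPM (-0.44). Immediate early genes were below 0 in 25 of 38 (median -0.07). Arc was at 57.0 and 69.8 CPM (-0.29) and Egr1 at 99.3 and 119.6 CPM (-0.27), whereas Fos was near level at 5.10 and 5.50 CPM.

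**Figure D4:**
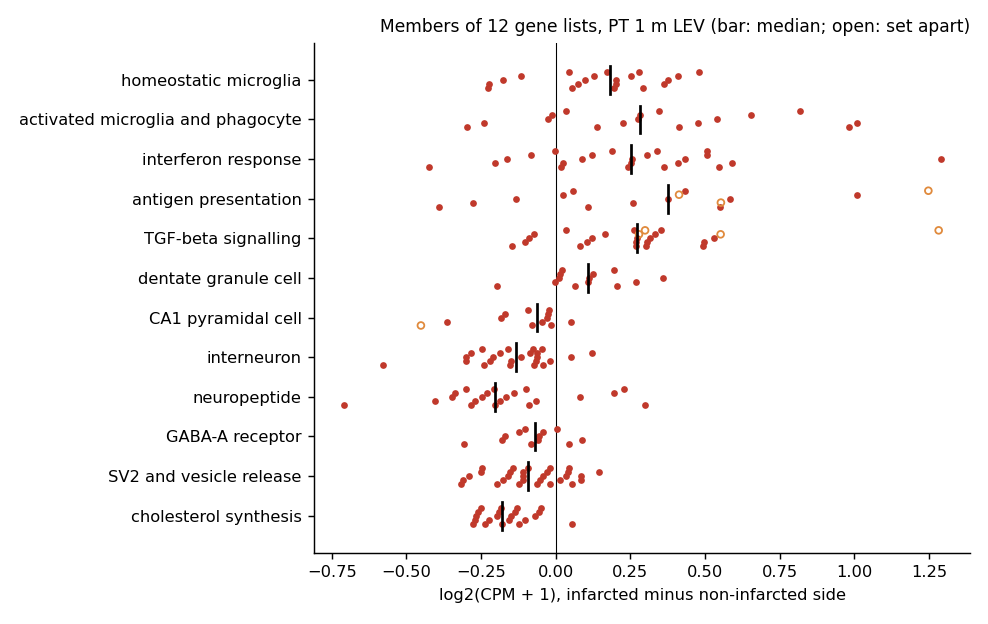
Each point is 1 measured gene of 12 lists, placed by its log2(CPM + 1) difference at 1 month with LEV, infarcted minus non-infarcted side; bars are list medians and open points are genes set apart. Microglial, interferon and TGF-beta members lie mostly to the right of 0, and 22 of 24 interneuron and 20 of 21 cholesterol members to the left.

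Among the 39 lists other than choroid plexus, cholesterol synthesis had the largest share of its members on one side. Of 21 genes 20 were below 0, the median was -0.18, and all lay between -0.28 and 0.06, so the size was small. Hmgcs1, which makes HMG-CoA, was at 136 and 156 CPM and the isomerase Idi1 at 14.2 and 17.4 CPM. Fdps was at 40.8 and 49.4 CPM and Dhcr7, which catalyses a last step, at 22.2 and 26.8 CPM. For Hmgcs1 and Idi1 naive was at 126 and 13 CPM, below both sides. The list median was 0.10 at 1 month without LEV, 0.05 at 2 months, -0.02 at 7 d and -0.06 at 7 d with LEV. The CCAAT box was in 13 of 14 promoters of the list found in the table (92.9%). It is capitalised in the RefSeq promoter of Idi1 (chr13:8885356-8885655, plus strand), where both copies read ATTGG.
Idi1: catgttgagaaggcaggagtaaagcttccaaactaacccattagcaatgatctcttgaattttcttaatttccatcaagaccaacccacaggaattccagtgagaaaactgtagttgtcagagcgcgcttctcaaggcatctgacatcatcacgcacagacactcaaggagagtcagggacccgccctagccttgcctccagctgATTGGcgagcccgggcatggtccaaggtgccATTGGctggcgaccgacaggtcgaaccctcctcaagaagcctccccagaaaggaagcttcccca

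Oligodendrocyte precursor genes were below 0 in 7 of 9 cases (median -0.18), and the growth factor receptor Pdgfra was at 14.4 and 16.8 CPM. Myelinating genes were above 0 in 13 of 19 (median 0.08), but myelin basic protein (Mbp) was at 1440.2 and 1676 CPM. Cytosolic ribosomal protein genes were below 0 in 49 of 78 cases (median -0.05), and 2 were past the fold lower, among them Rpl18 at 48.2 and 69.8 CPM. The chaperones Hspa8 (713 and 884 CPM) and Hspa5 (104 and 128 CPM) were also lower on the infarcted side, in a list with 16 of 29 below 0 (median -0.05). Nuclear respiratory chain genes were below 0 in 34 of 58 (median -0.08), with Cox8b the exception at 25.9 and 7.33 CPM, 1 of the genes set apart. Sodium, calcium and potassium channels, metabotropic glutamate receptors, circadian clock genes and splicing factors had medians between -0.01 and 0.05. Adult neurogenesis genes were below 0 in 7 of 12 cases (median -0.12), with Neurod1 at 25.6 and 30.5 CPM. Glucocorticoid-response and metallothionein genes were below 0 in 12 of 20 (median -0.04), with Pdk4 at 6.48 and 9.47 CPM (-0.49). The metallothioneins Mt1 (1618 and 1502 CPM) and Mt2 (1007 and 897 CPM) stood higher on the infarcted side.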

How the data were processed

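CAGE libraries were made from total RNA of whole mouse hippocampus with random primers and cap-trapping, per the labels' protocols. The authors deposited 1 table of CPM values for 22377 genes in 11 libraries. The tools, per the submitters' processing notes, were HISAT2 2.0.5, BWA 0.7.17 and DESeq2 1.20.0, with the build GRCm38. The counting rule, use of strand and removal of duplicate reads were not given in the sources used here.

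All CPM values came out as whole reads (100%, tolerance 0.0001), so library totals were recovered. Floors of 3 reads (0.189 and 0.134 CPM in the pair) and exact Poisson intervals at 95% cover counting error only. Identifiers were matched to GENCODE M21 (22335 without and 21747 with the version), and 624 genes had the same reads in all libraries as another gene.

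The pair was compared as log2(CPM + 1) over genes with a mean of at least 1 CPM. The members, the 40 gene lists (911 genes, 838 measured) and the rules were chosen with earlier results of these data known. Named genes were the 12 per direction with the largest difference at a mean of at least 5 CPM after setting choroid plexus genes apart, up to 4 per list, 8 choroid plexus genes by level, Sv2a, Gfap, Ttr and GABA-A subunits; genes known by identifier only were not named, and some items are not reported here. Others were named to show level or opposite members of a list and were chosen after their values were seen.

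Side differences were tested against the other 4 pairs with limma 3.58.1 (eBayes with trend; 3 residual and 4.95 prior degrees of freedom) in R 4.3.3, with Benjamini-Hochberg adjustment at 0.05, and with edgeR 4.0.16 and DESeq2 1.42.0 on the recovered reads. The procedure was tried on simulated reads drawn from the same mean for all PT libraries. Spread between pairs by time, drug or dissection was not simulated, so that trial does not show how the test works here. Alternatives were other pseudocounts, scalings, filters, depths and set-apart rules.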

Additional observations from a re-analysis of the deposited data

Results flagged for a closer look

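Several genes stood on opposite sides in the pairs taken at 1 month with and without LEV, each pair being 1 library a side. These differences were not tested. The choroid plexus list had a median of 1.46 with LEV and -1.14 without. Among its members the values with and without LEV were 4.39 and -5.20 for Ttr, 3.01 and -2.49 for F5, 2.42 and -2.04 for Ecrg4, and 2.39 and -2.17 for Folr1. They were 1.73 and -1.23 for Ace, 1.48 and -1.11 for Enpp2, 1.18 and -0.88 for Igfbp2, and 0.82 and -0.90 for Kl. The meningeal fibroblast list had a median of 0.51 with LEV and -0.78 without. Its members gave 1.28 and -0.50 for Bmp6, 1.27 and -1.10 for Igf2, 1.19 and -1.05 for Pcolce, 0.93 and -0.91 for Aldh1a2, and 0.52 and -1.17 for the GABA transporter Slc6a13. The same held for the respiratory chain isoform Cox8b (1.69 and -2.46), the collagen Col9a3 (1.16 and -0.87) and the growth factor Bmp7 (0.55 and -0.98). Glp1r, among the named genes, stood the other way round, at -0.65 with LEV and 1.01 without.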

How the results depend on the processing

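The counts past the fold depended on the pseudocount and the filter, because most such genes were low. Before setting genes apart, the 324 higher genes became 59 with a pseudocount of 5 and 86 at a mean of at least 5 CPM, and the 119 lower genes became 200 with a pseudocount of 0.5, 8 with 5, and 37 at 5 CPM. After it, the 231 higher genes became 20 with a pseudocount of 5 and 50 at 5 CPM, and the 114 lower genes 186 with a pseudocount of 0.5, 7 with 5, and 36 at 5 CPM. Setting apart every gene below 0 at 1 month without LEV, chosen after seeing the data, left 101 higher and 52 lower of 9009 genes. With only the choroid plexus list set apart, 293 were higher and 119 lower. Of a size of at least 1, the 7 higher genes became 27 with that list only, 15 when set apart at -1 or lower, 14 with a pseudocount of 0.5, 2 with 5, 1 at 5 CPM and 1 with the added rule, and the 0 lower genes became 3 with a pseudocount of 0.5. Past 0.5, TMM scaling gave 221 and 140, DESeq2 size factors 226 and 131, and thinning the deeper library 250 and 148. The choroid plexus median went from 1.46 to 0.74 with a pseudocount of 5. The test against other pairs called 0 genes under every alternative, including leaving out each other pair. Of 1104 values of named genes under alternatives 0 changed sign and 8 moved, all with a pseudocount of 5; 1 of 40 list medians changed sign, with thinning. No paired analysis was possible because each group is 1 library and the labels do not tie sides to animals. At 1 to 5 CPM, counting error alone is a large part of a difference, and genes under 0.189 CPM are at or under the floor of the shallower library.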
